A study of Homo sapiens with 9 samples.

Results

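This report describes 10 imprinted genes, H19, IGF2, CDKN1C and PHLDA2 on chromosome 11, SNRPN, SNHG14, MKRN3 and NDN on chromosome 15, and MEST and PEG10 on chromosome 7, out of 78894 Ensembl identifiers in the deposited tables. The members were chosen by name, with earlier results of these data in view, among them the low H19 and SNRPN levels of the knockouts. Their differences between knockouts and Control are therefore given as a description, with no test. The series is about a tumour enhancer of squamous carcinomas of the head and neck and used CAL27 cells, an established line from a squamous carcinoma of the tongue. Control carries no named edit or treatment, and A2ko, A8ko and C9ko are 3 CRISPR knockout groups of the same line with no other treatment named. The labels do not name the edited sequence and give no word on clones or pools. They list 3 Control samples and 2 of each knockout.

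The files of the A2ko pair were identical, as were those of the A8ko pair, and the column header in both files of a pair carried the same library name. Each pair was counted as 1 library, leaving 7 distinct libraries, namely 3 Control, 1 A2ko, 1 A8ko and 2 C9ko. No replicate check exists for A2ko or A8ko. The labels do not say that the samples of a group were separate cultures, so spreads and p-values measure only the difference between these libraries, which may be technical. Values were TPM (a share of the library after division by transcript length), which keep no depth. Between 15556 and 15954 identifiers reached 1 TPM in the Control, A8ko and C9ko libraries, and 16716 in A2ko. The A2ko values summed to 1000130 TPM and those of each other library to 1000000. Mitochondrial transcripts took 17.9% to 26.9% of the TPM. All 8 epithelial markers that were examined exceeded 1 TPM, whereas 7 of 9 markers of other cell types stayed under 1 TPM in every library. Those above it were CD68 and COL1A1. The summed epithelial markers were at 14395 to 15531 TPM in Control, 6137 in A2ko, 7097 in A8ko and 9366 to 9719 in C9ko. This sum does not describe every marker. As differences from Control on the log2(TPM + 1) scale, the 8 markers had medians of -0.13 (A2ko), 0.13 (A8ko) and 0.15 (C9ko). Some left the Control range with a difference of at least 1. For A2ko these were 0 higher and 2 lower, for A8ko 1 and 3, and for C9ko 2 and 1. The sum of the other markers was 34.6 to 40.04 TPM in Control, 50.8 in A2ko, 73.1 in A8ko and 23.2 to 24.1 in C9ko. Their part in the results below was not tested.

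An imprinted gene is transcribed mainly from the chromosome of 1 parent, because DNA methylation laid down in the egg or sperm marks a control region nearby. At the H19 and IGF2 locus, the insulator protein CTCF binds the unmethylated maternal control region, so that H19 is transcribed from the maternal and IGF2 from the paternal chromosome. A neighbouring domain holds CDKN1C and PHLDA2, both transcribed from the maternal chromosome under the control of the antisense transcript KCNQ1OT1. On chromosome 15 a control region that overlaps the SNRPN promoter sets the paternal expression of SNRPN, SNHG14, MKRN3 and NDN, the genes lost in Prader-Willi syndrome. MEST and PEG10 are paternally expressed genes with roles in placental growth. RNA levels of the kind measured here do not show which parental copy is transcribed.

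Windows around annotated starts, from 250 bases before to 50 after, were found for 6 of the 10 members, with sequence from RefSeq on GRCh38.p14. The windows below show 2 members that were low in all knockouts (H19 and SNRPN), 1 that was not (MKRN3) and 1 listed at 0 throughout (NDN). Capitals mark CG, the dinucleotide that carries the methylation imprint. The SNRPN window is the one of its 4 windows that it shares with SNURF.
H19 (chr11:2001217-2001516, minus strand): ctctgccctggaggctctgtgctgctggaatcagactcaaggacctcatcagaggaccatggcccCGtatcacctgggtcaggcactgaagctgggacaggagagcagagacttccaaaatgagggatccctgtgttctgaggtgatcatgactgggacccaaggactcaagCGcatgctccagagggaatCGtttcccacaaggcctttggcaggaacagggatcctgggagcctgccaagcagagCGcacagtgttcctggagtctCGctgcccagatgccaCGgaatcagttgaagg
SNRPN (chr15:24954737-24955036, plus strand): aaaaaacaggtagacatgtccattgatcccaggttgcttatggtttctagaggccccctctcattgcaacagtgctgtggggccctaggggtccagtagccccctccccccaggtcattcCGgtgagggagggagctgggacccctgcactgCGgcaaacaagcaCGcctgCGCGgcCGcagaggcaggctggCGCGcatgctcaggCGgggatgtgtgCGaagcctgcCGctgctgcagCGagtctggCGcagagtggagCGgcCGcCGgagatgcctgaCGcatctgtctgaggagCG
MKRN3 (chr15:23565424-23565723, plus strand): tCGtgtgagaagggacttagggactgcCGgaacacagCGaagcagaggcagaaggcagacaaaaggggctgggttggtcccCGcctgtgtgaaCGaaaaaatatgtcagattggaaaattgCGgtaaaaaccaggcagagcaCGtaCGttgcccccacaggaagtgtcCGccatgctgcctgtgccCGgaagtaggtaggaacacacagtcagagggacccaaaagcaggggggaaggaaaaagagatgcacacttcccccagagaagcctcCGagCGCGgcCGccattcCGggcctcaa
NDN (chr15:23687256-23687555, minus strand): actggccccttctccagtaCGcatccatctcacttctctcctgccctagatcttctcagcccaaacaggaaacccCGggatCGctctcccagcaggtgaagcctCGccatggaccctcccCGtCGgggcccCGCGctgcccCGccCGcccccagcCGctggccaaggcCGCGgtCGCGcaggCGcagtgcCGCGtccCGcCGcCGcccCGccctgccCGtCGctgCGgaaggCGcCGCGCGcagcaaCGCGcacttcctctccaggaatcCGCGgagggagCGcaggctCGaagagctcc

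The H19 window held 6 CG, the SNRPN window 18, the MKRN3 window 15 and the NDN window 35, against a median of 14 over 35116 windows of the same length. At least as many CG were found in 66.3%, 44.5%, 48.9% and 14.1% of all windows. The SP1-type box GGGCGG, searched on both strands, was found 4 times in the NDN window and not in the other 3, and 44.95% of all windows held it. CCAAT, also on both strands, was found once in the MKRN3 window and in 34.6% of all windows. The SNRPN windows not shown start at 24856321, 24862722 and 24956050 and held 7, 2 and 11 CG. That at 24856321 also held 2 GGGCGG, and that at 24862722 held 1 CCAAT. These are matches of letters in short windows.

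Both H19 and MEST carry a microRNA gene, whose mature sequences (RefSeq, GRCh38.p14) are shown with the seed, bases 2 to 8, in capitals. MIR675 lies within H19 on chromosome 11 and MIR335 within MEST on chromosome 7.
hsa-miR-675-5p: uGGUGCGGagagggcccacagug
hsa-miR-675-3p: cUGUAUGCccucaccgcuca
hsa-miR-335-5p: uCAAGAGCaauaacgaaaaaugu
hsa-miR-335-3p: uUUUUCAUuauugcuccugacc
The 4 seeds differ from one another. Mature microRNAs were not measured in these polyA libraries. The identifier of MIR675 was at 0.0419 TPM or less in every library, and that of MIR335 was listed at 0.

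The 10 members fell into 3 sets by level. MEST, PHLDA2, H19, MKRN3, SNRPN and SNHG14 reached 1 TPM in at least 2 distinct libraries and were thereby among the 17100 identifiers tested. SNRPN and SNHG14 passed this filter only through Control, so they had to differ. CDKN1C and IGF2 were at 0.347 TPM or less, and NDN and PEG10 were listed at 0 in all 7 libraries. Among protein-coding identifiers with a position, 14.3% were likewise at 0 in every library. In Control, MEST was at a mean of 81.8 TPM, above 90.1% of the tested genes, and SNHG14 at 1.75 TPM, above 19.1%.

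Differences below are knockout minus Control on the log2(TPM + 1) scale, on which a change at a low level looks smaller than it is. A member was counted as beyond Control when its knockout value, or both C9ko values, passed the lowest or highest of the 3 Control libraries and the difference was at least 1. H19, SNRPN and SNHG14 were lower by this rule in each knockout, and no member was higher. Of all tested genes the rule counted 5.07% in A2ko (3.54% higher, 1.53% lower), 4.73% in A8ko (2.05% higher, 2.68% lower) and 5.11% in C9ko (3.33% higher, 1.78% lower). It counted 0.579% the same way in all 3, 0.152% higher and 0.427% lower. With no size limit, all knockout libraries lay beyond all Control libraries on 1 side for 21.6% of the tested genes. A limma fit of the 3 knockouts as 3 values against Control called 1.03% of them, 0.509% higher and 0.520% lower. The split between directions depended on the scaling. With median-of-ratios scaling, the rule counted 2.52% higher and 2.11% lower in A2ko, 1.75% and 3.13% in A8ko, and 2.48% and 2.16% in C9ko. It then counted 0.105% higher and 0.486% lower in all 3. The fit of the 3 knockouts called 37 genes higher and 96 lower with that scaling, against 87 and 89 without it. The comparisons share the Control libraries, and the members were chosen with these contrasts in view. The median tested gene differed by 0.12 (A2ko), 0.09 (A8ko) and 0.11 (C9ko), and by -0.03, 0.02 and 0.00 once libraries were scaled by their median of ratios.

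**Figure D1:**
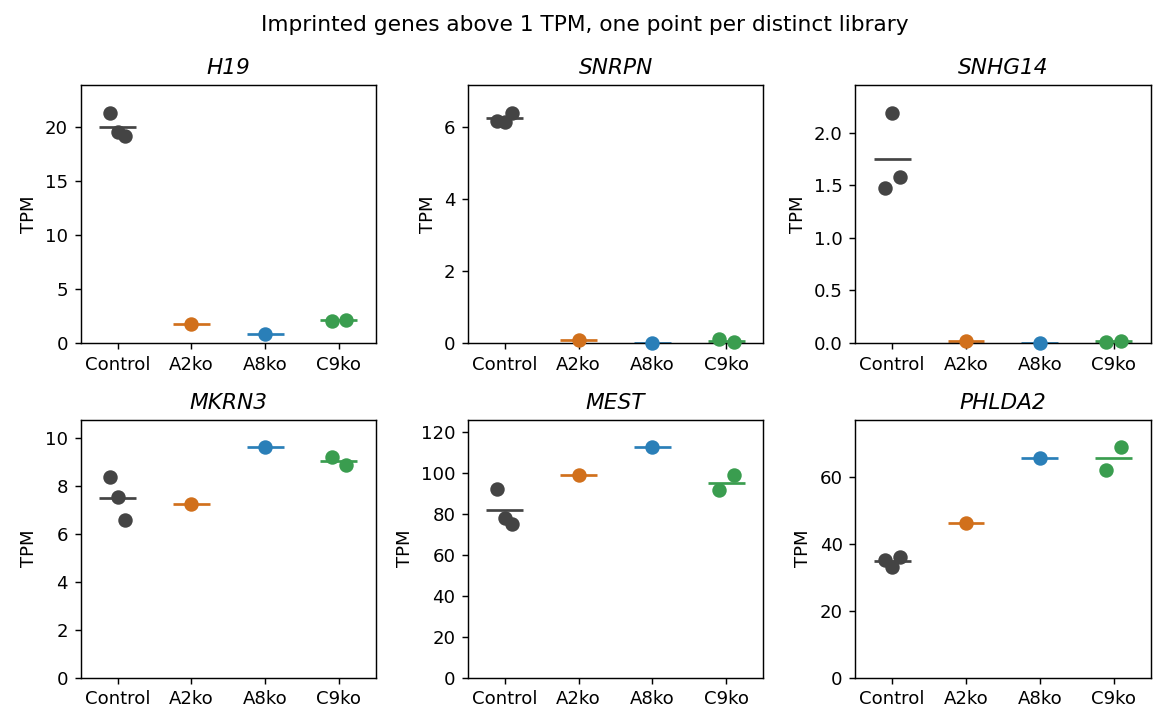
TPM (vertical axes, from 0) of the 6 members that reached 1 TPM, in Control, A2ko, A8ko and C9ko (horizontal axes); each point is 1 distinct library and each bar the group mean. H19, SNRPN and SNHG14 lie close to 0 in all 4 knockout libraries, whereas PHLDA2 lies above the Control libraries in all 4.

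H19 (ENSG00000130600, chromosome 11, 1995176 to 2001470, minus strand) is a maternally expressed non-coding RNA, abundant in the embryo and in many tumours. It was at 21.4, 19.5 and 19.2 TPM in Control, against 1.77 (A2ko), 0.819 (A8ko) and 2.04 and 2.17 (C9ko). All 4 knockout libraries lay below all 3 Control libraries, with A8ko the lowest. From a Control mean of 20.02 ± 1.17 TPM (SD, n = 3), the level was lower by a factor of 11.3 in A2ko, 24.5 in A8ko and 9.52 in C9ko. The log2 differences were -2.92, -3.53 and -2.76. Over the alternative settings they ranged from -4.45 to -2.71. In GENCODE release 29 H19 overlaps no other gene on its strand except MIR675, and 1.40% of the 31-base words in its transcripts occur in transcripts of another gene. That release placed 57342 of the 78894 identifiers. Sharing with the rest, among them ENSG00000294171 described below, could not be checked.

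IGF2, a fetal growth factor and the paternally expressed partner of H19, was listed at 0 in 6 of the 7 libraries and at 0.0174 TPM in Control 3. Its antisense transcript IGF2-AS and the readthrough INS-IGF2 were listed at 0 in every library. No fold can be given for IGF2. Of its 31-base words 72.7% occur in transcripts of another identifier, so its reads could be divided among entries that cover the same locus. None of the overlapping identifiers had a value above 0 in any library. Low H19 in the knockouts thus stood beside IGF2 at or near 0 in Control and knockouts alike.

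Some genes on the side of H19 away from IGF2 were also low. Within 500 kb of the H19 start, 12 other genes were tested. Lower by the rule were 1 of them in A2ko, 6 in A8ko and 2 in C9ko, against 1.53%, 2.68% and 1.78% of all tested genes. None was higher, against 3.54%, 2.05% and 3.33% of all tested genes. IFITM10 and ENSG00000250644, both among those lower in A8ko, overlap on the same strand, so they are not independent observations. ENSG00000250644 also overlaps CTSD on that strand. Every knockout library lay below every Control library for 4 of the 12, SYT8, TNNI2, LSP1 and TNNT3, and for 4.61% of all tested genes. With median-of-ratios scaling CTSD and MRPL23 were also below Control in every knockout library, as were 9.67% of all tested genes. All 4 start between -173.2 and -81.9 kb from the H19 start, negative distances being on the side away from IGF2.

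TNNT3, the troponin T of fast skeletal muscle, starts at -81.9 kb from H19. It was at 4.10, 4.66 and 4.24 TPM in Control, against 0.407 (A2ko), 0.290 (A8ko) and 0.406 and 0.157 (C9ko). The groups did not overlap, and TNNT3 was the only one of the 12 neighbours counted as lower in all 3 knockouts. The log2 differences were -1.92, -2.04 and -2.06. TNNT3 passed the filter on low values only through Control, as did SNRPN and SNHG14, so it had to differ, and its test in C9ko is not given as support.

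TNNI2, the troponin I of the same muscle type, was at 3.68 ± 0.428 TPM in Control (SD, n = 3), against 1.999 (A2ko), 1.11 (A8ko) and 1.48 and 2.39 (C9ko). SYT8, a member of the synaptotagmin family of membrane proteins, was at 17.9 ± 0.804 TPM in Control (SD, n = 3), against 14.3 (A2ko), 7.65 (A8ko) and 12.7 and 10.7 (C9ko). LSP1, an actin-binding protein, was at 4.33, 2.24 and 2.51 TPM in Control, against 1.19 (A2ko), 0.734 (A8ko) and 0.931 and 1.63 (C9ko). In each of the 3 genes A8ko was the lowest library. MRPL23, a mitochondrial ribosomal protein gene at -54.2 kb and thus nearer than TNNT3, was at 34.4 to 50.4 TPM in Control, against 34.6 (A2ko), 26.6 (A8ko) and 31.8 and 37.8 (C9ko). Its A2ko and C9ko values overlapped Control.

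IFITM10, at -250.9 kb, separated the knockouts. It was at 7.24, 6.91 and 6.12 TPM in Control, against 10.5 (A2ko), 1.24 (A8ko) and 1.53 and 1.69 (C9ko). It was thus above Control in A2ko and below it in A8ko and C9ko. On the IGF2 side, ASCL2, CD81 and TSSC4 differed from Control by less than 1 log2 unit in each knockout. In the wider window of 2000 kb on each side of H19, 74 other genes were tested. Their median difference was -0.25 in A8ko, 0.05 in A2ko and 0.11 in C9ko, against 0.09, 0.12 and 0.11 for all tested genes. Of the 74, 57 were lower in A8ko, 35 in A2ko and 28 in C9ko. With median-of-ratios scaling these counts were 61, 45 and 36 of 75. The medians were then -0.31, -0.10 and 0.01, against 0.02, -0.03 and 0.00 for all tested genes. The share of all tested genes that were lower with no size limit was not counted for each knockout. The part of this wider A8ko shift in the values near H19 was not tested.

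**Figure D2:**
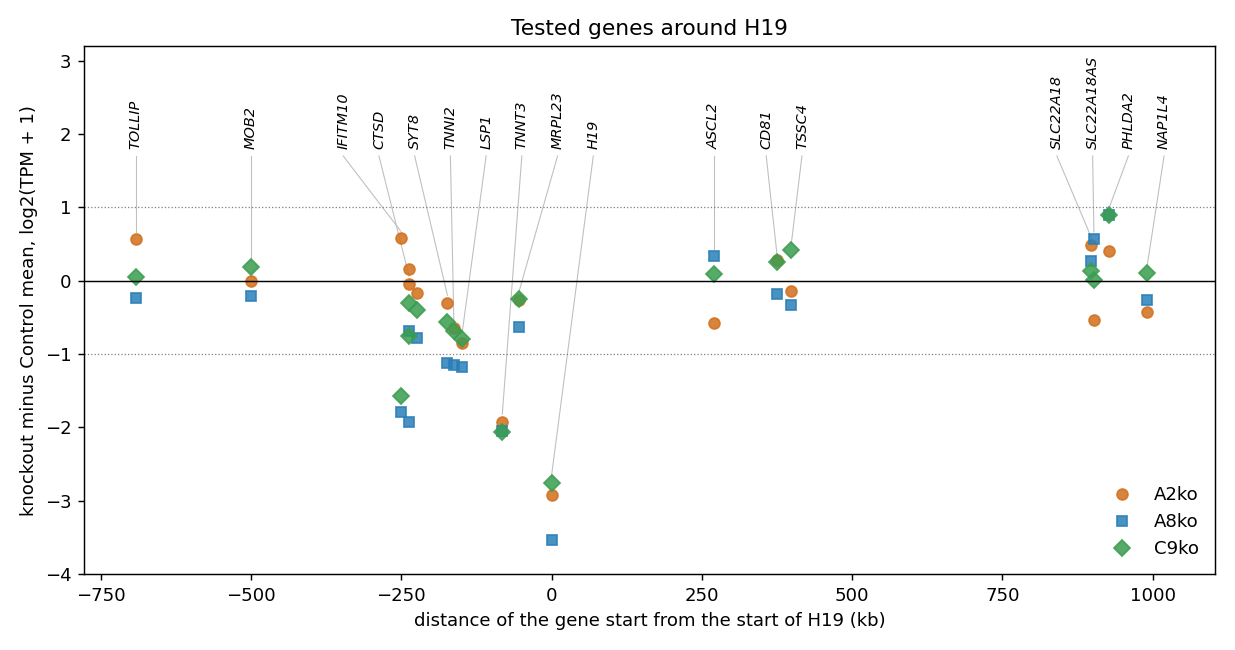
Difference from the Control mean on the log2(TPM + 1) scale (vertical axis) of each tested gene from -691.8 to 990.9 kb around H19, against the distance of its start from the H19 start in kb (horizontal axis); 1 symbol per knockout, unnamed points are identifiers without a symbol, and dotted lines mark 1 and -1. H19 at 0 kb and TNNT3 at -81.9 kb are below -1 in all 3 knockouts, whereas PHLDA2 at 928.0 kb is above 0 in all 3.

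CDKN1C (ENSG00000129757, chromosome 11, 2883213 to 2885773, minus strand) encodes p57, a maternally expressed inhibitor of cyclin-dependent kinases. It was at 0.206, 0.0909 and 0.347 TPM in Control, against 0.0782 (A2ko), 0.195 (A8ko) and 0.265 and 0.313 (C9ko). A8ko and C9ko lay within the Control range and A2ko just below it, all at levels too low for the filter. KCNQ1OT1, the antisense transcript of this domain, was at 0.156 TPM or less in every library.

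PHLDA2 (ENSG00000181649, chromosome 11, 2928273 to 2929455, minus strand), a small lipid-binding protein that restrains placental growth, starts 928.0 kb from H19. It was at 35.03, 33.2 and 36.1 TPM in Control, against 46.2 (A2ko), 65.8 (A8ko) and 62.2 and 68.8 (C9ko). All 4 knockout libraries were above all Control libraries, A2ko the least. The log2 differences were 0.40, 0.90 and 0.89, under the 1 log2 unit of the rule, and ranged from 0.24 to 0.97 over the alternative settings. Every knockout library lay above every Control library for 17.0% of all tested genes, and for 8.47% with median-of-ratios scaling, under which PHLDA2 was still above Control in all 4. SLC22A18, a transporter gene beside PHLDA2, was at 26.3 to 30.2 TPM in Control, against 40.6 (A2ko), 34.7 (A8ko) and 29.6 and 33.6 (C9ko), with C9ko overlapping Control. H19 and PHLDA2, both expressed from the maternal chromosome in the normal state, thus differed from Control in opposite directions in all 4 knockout libraries.

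SNRPN (ENSG00000128739, chromosome 15, 24823637 to 24978723, plus strand) encodes SmN, a core protein of the spliceosome that resembles the product of SNRPB. It was at 6.17, 6.15 and 6.40 TPM in Control. A2ko held 0.0822 TPM, C9ko 0.0985 and 0.0283, and A8ko was listed at 0. The Control libraries were close together, and no knockout library reached 0.1 TPM. From 6.24 ± 0.142 TPM in Control (SD, n = 3), the log2 differences were -2.74 in A2ko, -2.86 in A8ko and -2.77 in C9ko. They understate the change most at such low levels, and with a pseudocount of 0.1 they were -5.12, -5.99 and -5.31. SNRPB itself was at 248 ± 23.2 TPM in Control (SD, n = 3), against 198.7 (A2ko), 243.2 (A8ko) and 306.1 and 340.4 (C9ko).

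SNHG14 (ENSG00000224078, chromosome 15, 24978583 to 25419462, plus strand) is the long paternal transcript that follows SNRPN, hosts large clusters of small nucleolar RNAs and runs antisense to UBE3A. It was at 1.48, 2.19 and 1.58 TPM in Control. A2ko held 0.0166 TPM, C9ko 0.00441 and 0.0228, and A8ko was listed at 0. The log2 differences were -1.43, -1.45 and -1.43. SNRPN and SNHG14 overlap on the same strand, so they are not independent observations. Of the 31-base words of SNRPN, 29.7% occur in transcripts of other identifiers, most of them in SNURF with 20.5%. SNHG14 transcripts hold only 2.99% of the SNRPN words. SNURF, which shares its first exons with SNRPN, was at 0.0107 to 0.103 TPM in Control and listed at 0 in all 4 knockout libraries. Of 84 small nucleolar RNA identifiers inside SNHG14, 9 had a value above 0 in a Control library and none in a knockout library, with 0.245 TPM as the highest. Such short RNAs are poorly captured by polyA libraries.

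Genes around this pair did not share these low values. MKRN3 (ENSG00000179455, chromosome 15, 23565674 to 23630075, plus strand), an imprinted ubiquitin ligase that restrains the onset of puberty, is likewise paternally expressed and starts at -1258 kb from SNRPN. It was at 8.36, 7.52 and 6.56 TPM in Control, against 7.25 (A2ko), 9.61 (A8ko) and 9.19 and 8.88 (C9ko). A2ko lay within the Control range and the other 3 libraries slightly above it. The log2 differences were -0.03, 0.33 and 0.25, and that of A2ko ranged from -0.18 to 0.04 over the settings, so it has no stable sign. UBE3A, maternally expressed in neurons and on the strand opposite to SNHG14, was at 21.9 to 26.5 TPM in Control, against 22.1 (A2ko), 23.98 (A8ko) and 22.5 and 22.9 (C9ko), all within the Control range. The use of strand in counting is not given in the sources used here. NDN, a growth-restraining protein of the MAGE family between MKRN3 and SNRPN, was listed at 0 in all libraries, as was MAGEL2. Within 2000 kb of SNRPN, 1 of 6 other tested genes, SNHG14, was counted as lower in each knockout and none as higher.

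**Figure D3:**
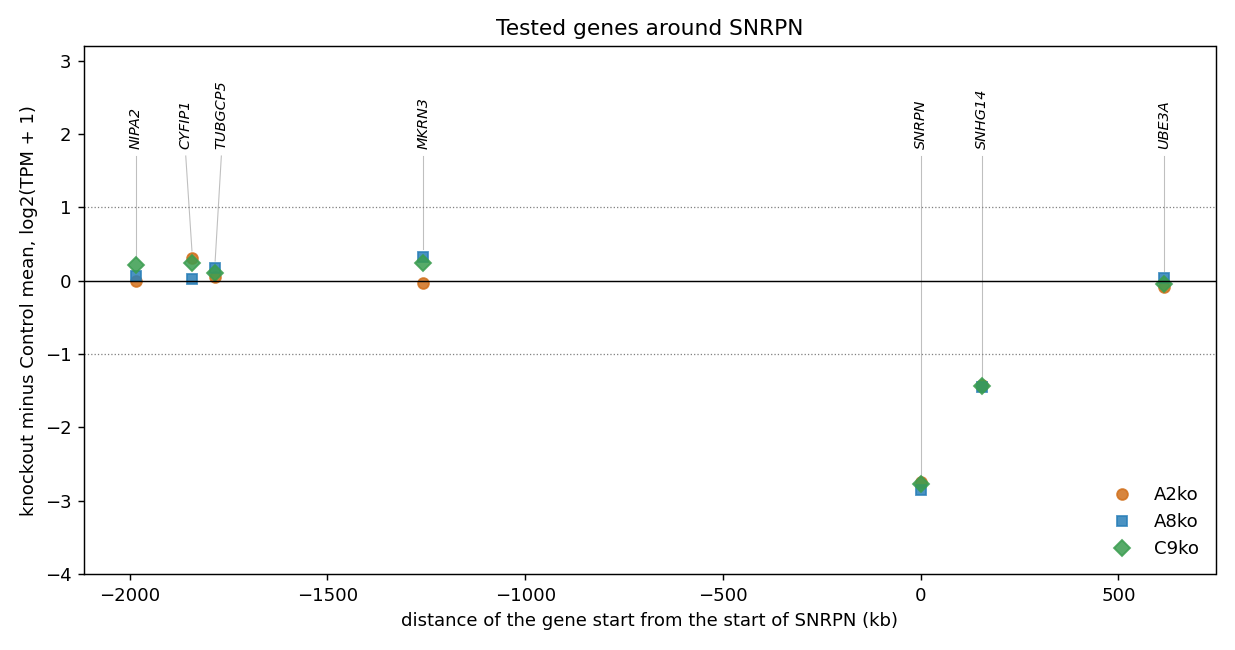
Difference from the Control mean on the log2(TPM + 1) scale (vertical axis) of each tested gene within 2000 kb of SNRPN, against the distance of its start from the SNRPN start in kb (horizontal axis); 1 symbol per knockout, dotted lines mark 1 and -1. SNRPN and SNHG14 lie below -1 in all 3 knockouts, and MKRN3, UBE3A and the other 3 genes lie within 0.4 of 0.

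MEST (ENSG00000106484, chromosome 7, 130486171 to 130506465, plus strand), an enzyme-like protein of the alpha/beta hydrolase fold expressed from the paternal chromosome, was the most abundant member. It was at 92.4, 78.1 and 74.9 TPM in Control, against 99.1 (A2ko), 112.5 (A8ko) and 91.6 and 99.1 (C9ko). A2ko and A8ko lay above the Control range and C9ko overlapped it, with log2 differences of 0.28, 0.46 and 0.22. With median-of-ratios scaling, A2ko at 92.7 also lay within the Control range of 77.5 to 95.7, and A8ko at 111.3 remained above it. MEST overlaps COPG2 and the antisense MESTIT1 on the other strand, and 7.76% of its 31-base words occur in other transcripts, mostly of its pseudogenes. PEG10, a gene derived from a retrotransposon and paternally expressed, was listed at 0 in all 7 libraries, and its neighbour SGCE was at 0.225 TPM or less.

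Profiles most like those of H19 and SNRPN were sought among 11280 other genes with a mean of at least 5 TPM in Control or knockouts, by the root mean square distance of the differences from Control over the 4 knockout libraries. For H19 the nearest was ENSG00000294171, an identifier with no symbol or position in the tables used, at a distance of 0.13 log2 units. It was at 21.4, 18.5 and 19.04 TPM in Control, against 1.73 (A2ko), 1.08 (A8ko) and 2.26 and 2.14 (C9ko), close to the H19 values library by library. SNRPN itself came next at 0.35, then SOX2 at 0.44, KRTDAP at 0.46 and PEDS1-UBE2V1 at 0.59. The closeness of H19 and SNRPN depends on the pseudocount of 1. With a pseudocount of 0.1 the differences in A2ko, A8ko and C9ko were -3.42, -4.45 and -3.19 for H19. For SNRPN they were then -5.12, -5.99 and -5.31. SOX2 is a transcription factor of squamous and stem cells and KRTDAP a secreted protein of differentiating keratinocytes. For SNRPN the 5 nearest were ENSG00000294171 at 0.25, PEDS1-UBE2V1 at 0.29, SOX2 at 0.32, H19 at 0.35 and KRTDAP at 0.52. PEDS1-UBE2V1 is a readthrough of neighbouring genes, so its value depends on how reads were divided among overlapping identifiers. Each of these genes was below every Control library in all 4 knockout libraries. This follows from the search for profiles near those of H19 and SNRPN and is no separate result. SOX2, KRTDAP and PEDS1-UBE2V1 passed the filter on low values only through Control.

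To see whether other imprinted genes differed in C9ko, the 1 knockout with distinct replicates, a list of 69 further genes described as imprinted in some human tissue was used, of which 66 had an identifier and 25 were tested. In the limma fit over 17100 genes, 7 of the 25 had an adjusted p below 0.05, 6 higher and 1 lower, or 6 and 2 with median-of-ratios scaling. Of all tested genes 29.5% were called, 22.0% higher and 7.42% lower, so the share in the list, 28.0%, was near the background. The median difference of the 25 was 0.10 in C9ko, 0.08 in A2ko and 0.17 in A8ko. Of the 5038 called genes 74.8% were higher. Scaled by the median of ratios, 4802 were called, 56.1% of them higher. None of the 25 was counted beyond Control the same way in all 3 knockouts.

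The gene called lower was DLX5, a homeobox transcription factor, with a log2 difference of -1.14 in C9ko. Control held 1.76 ± 0.105 TPM (SD, n = 3) and the C9ko libraries 0.171 and 0.341 TPM. It was at 0.104 TPM in A8ko and 1.41 in A2ko. DLX5 reached 1 TPM in only 1 knockout library and passed the filter through Control, so its call is not given as support. GRB10, an adaptor that binds the insulin and IGF1 receptors, rose by 0.87 (limma adjusted p 0.00469, SE 0.14), from 4.11 ± 0.537 TPM (SD, n = 3) to 7.29 and 9.42 TPM. NNAT, a small proteolipid gene, rose by 0.67 (adjusted p 0.0144), and BLCAP, whose intron holds NNAT, by 0.48 (adjusted p 0.00412). ZNF597, a zinc finger gene, rose by 0.53 (adjusted p 0.0209), PAX8-AS1 by 0.45 (adjusted p 0.00691) and the receptor gene IGF2R by 0.38 (adjusted p 0.00728). The direction was the same in 2 of 2 C9ko libraries for these genes. With no filter on low values GRB10 (adjusted p 0.0576), PAX8-AS1 (0.0558), NNAT (0.0969) and ZNF597 (0.0862) lost their calls. Leaving out C9ko 2 ended the calls of NNAT, ZNF597 and IGF2R, with adjusted p of 0.0756, 0.102 and 0.0518, and ZNF597 also lost its call without C9ko 1, Control 2 or Control 3, with 0.0600 to 0.0642.

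**Figure D4:**
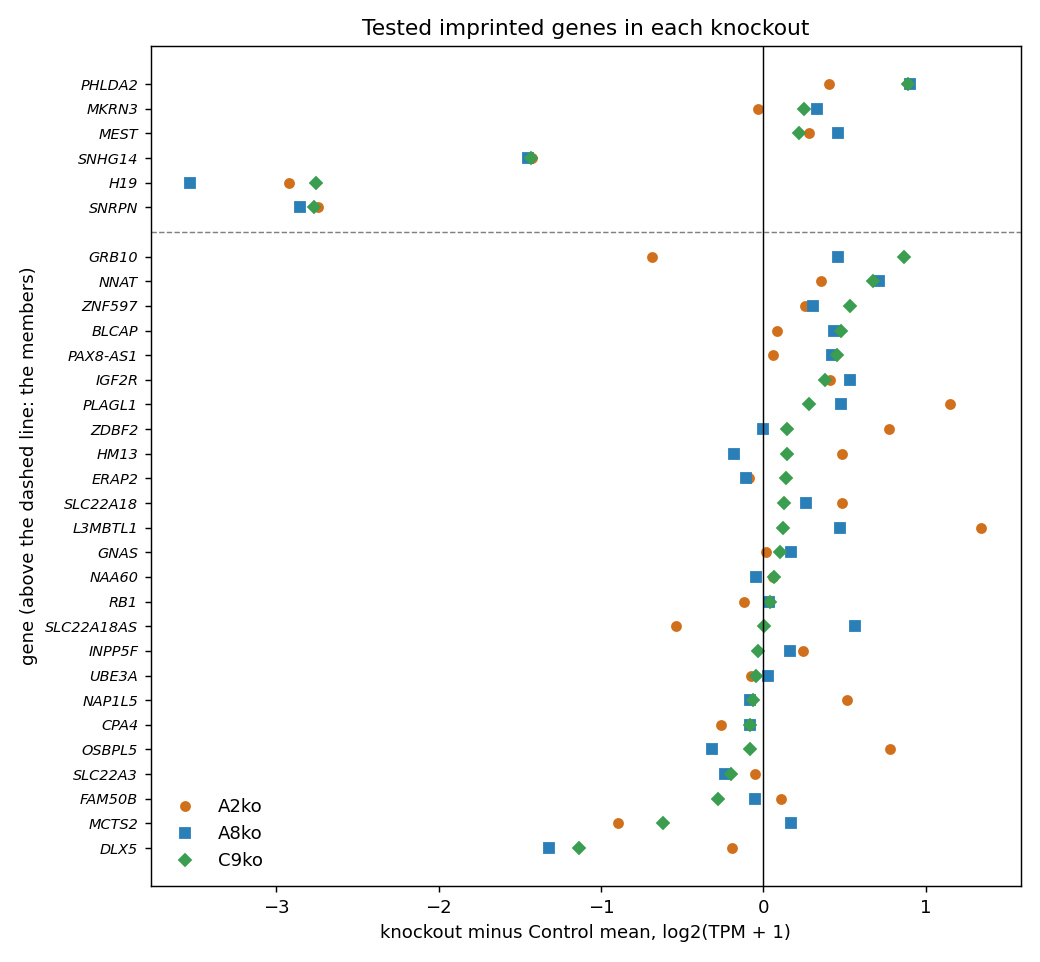
Difference from the Control mean on the log2(TPM + 1) scale (horizontal axis) of the 25 tested genes of the imprinted list and, above the dashed line, the 6 tested members (vertical axis); 1 symbol per knockout, A2ko and A8ko from 1 library and C9ko the mean of 2. H19, SNRPN and SNHG14 lie below -1 in all 3 knockouts, and DLX5 lies below -1 in A8ko and C9ko but not in A2ko.

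The genes next to the imprinted domains but not imprinted themselves were a list of 37, of which 24 were tested. In C9ko 8 were called, 3 higher and 5 lower, with a median difference of 0.08. This is 33.3% of the list, near the 29.5% of all tested genes (22.0% higher, 7.42% lower). With median-of-ratios scaling 7 were called, 0 higher and 7 lower. Of the 5 lower, among them TNNT3 with the limit given above, TNNT3, TNNI2, SYT8 and CTSD lie on the same side of H19. SYT8 fell by 0.57 (SE 0.09, limma adjusted p 0.00464) and TNNI2 by 0.69 (SE 0.17, adjusted p 0.0234). CTSD, the lysosomal protease cathepsin D, fell by 0.30 (adjusted p 0.0331), from 1005 ± 44.4 TPM (SD, n = 3) to 864.5 and 766.2 TPM. PON3, a lipid-associated esterase gene on chromosome 7, fell by 0.33 (adjusted p 0.0467). TSSC4 rose by 0.41 (adjusted p 0.0214), CD81 by 0.26 (adjusted p 0.0191) and CYFIP1 on chromosome 15 by 0.25 (adjusted p 0.0322). These 3 calls were lost with median-of-ratios scaling, where the differences were 0.29, 0.14 and 0.13 (adjusted p 0.0560, 0.0752 and 0.0998).

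Calls in this list rested on few libraries. Without Control 1, the adjusted p was 0.0631 for TNNI2, 0.0852 for CTSD, 0.102 for PON3, 0.0609 for TSSC4, 0.0537 for CD81 and 0.0700 for CYFIP1, whereas SYT8 stayed called. Without Control 2 it was 0.0980 for PON3, 0.0654 for TSSC4, 0.0511 for CD81 and 0.0826 for CYFIP1. Without Control 3 it was 0.0750 for TNNI2, 0.0961 for CTSD, 0.105 for PON3 and 0.0608 for CYFIP1. Without C9ko 1 it was 0.109 for TNNI2, 0.0702 for TSSC4, 0.0706 for CD81 and 0.0686 for CYFIP1. Without C9ko 2 it was 0.197 for CTSD, 0.232 for PON3, 0.0927 for TSSC4, 0.104 for CD81 and 0.167 for CYFIP1.

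Factors that set or keep imprints, a list of 31 with 26 tested, gave 7 calls in C9ko, all higher, with a median difference of 0.17. This is 26.9% of the list, against 29.5% of all tested genes called and 22.0% called higher. ZNF445, a zinc finger protein that protects imprints from demethylation, rose by 0.67 (limma adjusted p 0.00626, SE 0.12), from 1.52 ± 0.120 TPM (SD, n = 3) to 3.005 and 3.02 TPM. TDG, a glycosylase in the removal of methylated cytosine, rose by 0.51 (adjusted p 0.00505) and STAG1, a cohesin subunit, by 0.43 (adjusted p 0.00869). EHMT2, CTCF, SMCHD1 and SUZ12 rose by 0.22 to 0.28 (adjusted p 0.0292 to 0.0407). With median-of-ratios scaling 3 calls were left, since EHMT2, CTCF, SMCHD1 and SUZ12 then had adjusted p of 0.143 to 0.201. Leaving out single libraries also ended these 4 calls, for CTCF, SMCHD1 and SUZ12 with any of the 5 Control and C9ko libraries, at adjusted p of 0.0576 to 0.195, and for EHMT2 with any but Control 3, at 0.0891 to 0.164. ZNF445, TDG and STAG1 stayed called in each of those fits, and TDG lost its call with no filter on low values (adjusted p 0.0502). The methyltransferase DNMT1 was at 55.8 to 63.5 TPM in Control, against 51.8 (A2ko), 77.3 (A8ko) and 67.8 and 75.8 (C9ko), and was not called.

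IGF signalling genes, with RNA-binding proteins named for IGF2 mRNA, formed a list of 23 with 15 tested. It was written with earlier results of these data known, and it shares IGF2R with the imprinted list. In C9ko 9 were called, 7 higher and 2 lower, with a median difference of 0.20. This is 60.0% of the tested list, against 29.5% of all tested genes (22.0% higher, 7.42% lower). No set test was made, and the list was not chosen blind to the data, so the share is a description only. IGFBP7, a secreted binding protein, rose by 1.14 (limma adjusted p 8.43e-05, SE 0.07), from 67.7 ± 3.08 TPM (SD, n = 3) to 144.5 and 156.8 TPM. IRS2, an insulin receptor substrate, rose by 1.04 (adjusted p 0.000353), and IGFBP4 by 0.75 (adjusted p 0.00106). IGFBP3, the main IGF carrier in plasma, fell by 0.58 (adjusted p 0.00196), from 1232 ± 77.0 TPM (SD, n = 3) to 818.4 and 829.4 TPM, and was at 456.2 TPM in A2ko and 492.2 in A8ko. IGFBP6 fell by 0.53 (adjusted p 0.00305). IGF2BP3, an RNA-binding protein named for its binding of IGF2 mRNA, rose by 0.40 (adjusted p 0.00329). The other 3 called genes were IGF2R, IRS1 and IGF2BP2, which rose by 0.36 to 0.39. With the replicate number as a term in the limma fit, IGF2R (adjusted p 0.0573) and IGF2BP2 (adjusted p 0.0600) lost their calls. IRS1 lost its call without C9ko 1 (adjusted p 0.0578) or C9ko 2 (adjusted p 0.0522), and IGF2R without C9ko 2.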

How the data were processed

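PolyA RNA of CAL27 cells was sequenced from dUTP libraries made with 2 ug of total RNA, per the labels' protocols. The authors deposited TPM per Ensembl gene identifier. The build is hg38 per the submitters' processing notes, and aligner, counter, annotation and use of strand are not given in the sources used here. Symbols were found for 61463 of 78894 identifiers, and GENCODE release 29 (GRCh38) gave positions for 57342. A neighbour without a position there is not counted.

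The members and lists were chosen with earlier results of these data known. Values were analysed as log2(TPM + 1), for genes with at least 1 TPM in at least 2 distinct libraries. C9ko was compared with Control by limma 3.58.1 in R 4.3.3 (all 4 groups in 1 fit, eBayes with trend, two-sided, Benjamini-Hochberg adjustment over 17100 genes), called at an adjusted p under 0.05. The knockout groups as 3 values were compared with Control the same way, and A2ko and A8ko had no test. Named genes were the members, up to 6 called genes per list by size of difference, list genes beyond Control in all 3 knockouts, tested neighbours within 500 kb of H19 or SNRPN, and the 5 nearest profiles of both. Other genes named (KCNQ1OT1, SLC22A18, UBE3A, SNRPB, SGCE, DNMT1 and called genes beyond 6 per list among them) were picked after their values were seen. Both limma fits were first run and tested on simulated data. Alternatives were other pseudocounts, filters and scalings, all 9 files, a replicate term and leaving out libraries. TPM keeps no depth, so no counting interval is given.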

Additional observations from a re-analysis of the deposited data

Results flagged for a closer look

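Among 54 genes examined, the members and the tested genes given with values above, 12 had knockout groups on opposite sides of the Control libraries in unscaled TPM. With 1 distinct library for A2ko and for A8ko, no test of these gaps was made. Values in parentheses are differences from Control on the log2(TPM + 1) scale. IFITM10 was above Control in A2ko (0.58) and below it in A8ko (-1.79) and C9ko (-1.57), so that its extreme groups were 2.37 apart. PON3 likewise was higher in A2ko (1.68) and lower in A8ko (-0.40) and C9ko (-0.33), a gap of 2.08. IGFBP6 was higher in A2ko (0.21) and lower in A8ko (-1.08) and C9ko (-0.53), a gap of 1.29. GRB10 was lower in A2ko (-0.69) and higher in A8ko (0.46) and C9ko (0.87), a gap of 1.55. IGF2BP3, DNMT1 and IGF2BP2 were also lowest in A2ko, at -0.25, -0.20 and -0.12, with gaps of 0.66, 0.57 and 0.48. The highest group was C9ko for IGF2BP3 (0.40, with A8ko at 0.04) and IGF2BP2 (0.36), and A8ko for DNMT1 (0.37). ASCL2 was lower in A2ko (-0.57) and higher in A8ko (0.34), a gap of 0.91, and SNRPB lower in A2ko (-0.31) and higher in C9ko (0.39), a gap of 0.70. IGFBP4 was higher in A2ko (0.80) and C9ko (0.75) but lower in A8ko (-0.40), a gap of 1.21. CD81 had that order too (0.29, 0.26 and -0.19), a gap of 0.47. TSSC4 was higher in C9ko (0.41) and lower in A2ko (-0.15) and A8ko (-0.33), a gap of 0.74. No member showed this in unscaled TPM. With median-of-ratios scaling MKRN3 did, at 6.78 TPM in A2ko and 9.51 in A8ko against 6.79 to 8.66 in Control.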

How the results depend on the processing

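The log2 differences of H19, SNRPN and SNHG14 kept their sign under every alternative run, between -5.99 and -1.31. Of the 156 values of the 6 tested members under alternatives, 125 moved by less than 1 SD of the Control libraries and 31 by more. No value counted as beyond Control changed sign. The count of 125 is no measure of stability, since many of these values could not move further. A change of filter leaves a member's own difference unchanged. Leaving out 1 of 3 Control libraries always moves it by less than 1 SD, and the replicate term in C9ko repeats the value without Control 3. In C9ko against Control, 5038 genes were called, 8166 with all 9 files as separate libraries, and 3301 (without C9ko 2) to 4174 when 1 library was left out. With the replicate number as a term (replicate block) 3248 were called. Number 1 minus number 2 correlated between Control and C9ko at -0.04 across genes, and with 2 shared numbers the samples share only a number. All knockouts against Control gave 176 genes, 23 without a filter, 1993 without A2ko, 67 without C9ko, 4361 with the knockout average in the fit of all groups, and 5 to 165 with 1 library left out, 11 without Control 1 and 5 without Control 2 or 3. A2ko gave 867 genes, 1813 with a pseudocount of 0.1 and 380 with a mean of at least 5 TPM, and A8ko gave 809, 1689 and 412. Of the other imprinted genes 7 were called, 3 without a filter, 4 with a mean of at least 5 TPM and 4 (without C9ko 2) to 7 with 1 library left out. Of the neighbours 8 were called, 3 without a filter, 13 with all 9 files, 3 under the replicate block and 3 to 4 with 1 library left out. Of the imprint control factors 7 were called, 3 without a filter, 3 after median-of-ratios scaling, 13 with all 9 files, 3 under the replicate block and 3 to 4 with 1 library left out. Of the IGF signalling genes 9 were called, 7 under the replicate block and 11 with all 9 files, and every setting stayed within 1.5 times of 9. The cause of these shifts was not tested, apart from the number of genes or libraries that each setting uses. Depth is unknown, so values under 0.1 TPM have no stated precision.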
